A study of Mus musculus with 2 samples.

Results

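CTCF binding was examined around 10 genes that direct cartilage and bone formation, in the limb of the mouse embryo. These are the transcription factor genes Sox5, Sox6, Runx2, Runx3, Sp7, Trps1, Mef2c and Nkx3-2, the ligand gene Pthlh and its receptor gene Pth1r. The 10 genes were chosen by name from 21938 protein-coding genes of the GENCODE M21 annotation, by a rule that uses no CTCF signal, although earlier results of these data were known when they were chosen. Peaks were assigned to a gene when the summit lay between 100 kb before the gene and 100 kb past it. By that rule 106 of 49970 peaks belonged to the 10 genes, and no peak fell in the windows of 2 genes.

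CTCF was immunoprecipitated from chromatin of B6NCrl limbs at embryonic day 14.5 (14.5 days), with male and female embryos together, and the bound DNA was sequenced. The labels describe no mutation or treatment. The labels number the libraries as biological replicates, replicate 1 and replicate 2. Both nevertheless came from 1 pool of pulverised limbs gathered over several dissections, so their spread may be technical and covers neither embryos nor litters. Whole limbs mix cartilage, muscle, skin and connective tissue, and with 1 group there was no comparison between conditions. The lists hold no expression values, so the tissue label was not checked against marker genes.

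CTCF is a zinc finger protein that binds a long, directional DNA motif. Cohesin extrudes chromatin loops until it meets bound CTCF, and loops form most often between motifs that point towards each other. In the growing limb skeleton, mesenchymal cells condense and become chondrocytes under Sox9 with its partners Sox5 and Sox6. Chondrocytes then enlarge under Runx2, Runx3 and Mef2c, while PTHrP, the product of Pthlh, acts through its receptor Pth1r to delay that step. Osteoblasts form where Runx2 and then Sp7 are active.

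The sequences under the strongest peak of each gene are shown first, because the motif and its direction recur in all later comparisons. The motif matrix was learned from strong peaks outside these genes, and its consensus read TGGCCACCAGGGGGCACTAT. Each line gives a gene and then 20 bases on each side of the motif, or 5 where an exon overlaps, read from the GRCm38.p6 reference (mm10) 5′ to 3′ along the strand of the motif. Capitals mark the 20 bases of the motif. The positions are chr5:41768560-41768619 (minus strand) for Nkx3-2, chr9:110635418-110635447 (plus) for Pth1r, chr13:83715147-83715206 (plus) for Mef2c and chr15:102381720-102381779 (plus) for Sp7. They are chr4:135206493-135206552 (minus) for Runx3, chr7:116132252-116132311 (plus) for Sox6, chr17:44455830-44455889 (plus) for Runx2, chr6:147240378-147240437 (minus) for Pthlh and chr6:144815019-144815078 (minus) for Sox5. The single peak of Trps1 held no motif, and the bases at its summit, chr15:50698111-50698151 (plus), are all in lower case.
Nkx3-2: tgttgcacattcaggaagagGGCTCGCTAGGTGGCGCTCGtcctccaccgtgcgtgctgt
Pth1r: gtcgtCTGCCGCTAGGGGGCGCTCGcgctg
Mef2c: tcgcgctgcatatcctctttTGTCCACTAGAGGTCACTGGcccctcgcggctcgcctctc
Sp7: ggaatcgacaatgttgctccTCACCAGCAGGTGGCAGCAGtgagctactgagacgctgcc
Runx3: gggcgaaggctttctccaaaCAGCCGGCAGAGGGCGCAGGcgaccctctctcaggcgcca
Sox6: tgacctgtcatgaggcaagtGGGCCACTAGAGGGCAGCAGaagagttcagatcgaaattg
Runx2: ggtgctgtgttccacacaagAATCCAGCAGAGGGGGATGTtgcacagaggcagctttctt
Pthlh: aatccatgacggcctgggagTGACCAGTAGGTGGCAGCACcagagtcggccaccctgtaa
Sox5: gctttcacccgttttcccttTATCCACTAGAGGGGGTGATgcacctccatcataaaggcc
Trps1: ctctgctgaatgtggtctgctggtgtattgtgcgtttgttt
The match to the consensus ranged from 11 of 20 bases at Nkx3-2, Runx2 and Runx3 to 14 of 20 at Sox6 and Mef2c. The order of these matches was not the order of the signals: Nkx3-2, with 11 matching bases, had the highest pooled signal of the 10 genes.

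Signal is the authors' deposited value for each peak, given on the scale of each list: a pooled value from both libraries together and a value for each replicate. Its normalization was not given in the sources used here, and the read depth behind it is unknown. By gene, the strongest peak reached a pooled signal of 375.4 at Nkx3-2, 348.3 at Pth1r, 336.5 at Mef2c, 332.2 at Sp7, 302.4 at Runx3, 279.6 at Sox6, 226.8 at Runx2, 167.6 at Pthlh, 135.5 at Sox5 and 16.5 at Trps1. The 10 genes thus spanned from a site stronger than 99.0% of the optimal peaks to one stronger than 2.87% of them. The 106 peaks had a median pooled signal of 50.9, beside 58.4 over all optimal peaks, and 51 of the 106 lay above that overall median. Scaled to the same overall median, the median was 47.9 in replicate 1 and 58.4 in replicate 2 (SD 7.41, n = 2). The replicate 2 value covers the 104 peaks with a summit there. Those left out were weak, at 20.5 (Sox5) and 29.3 (Sp7) pooled, so that value may be too high for the whole set. The difference was about the size of the spread between replicates, and absent in replicate 2 among the peaks with a value.

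**Figure D1:**
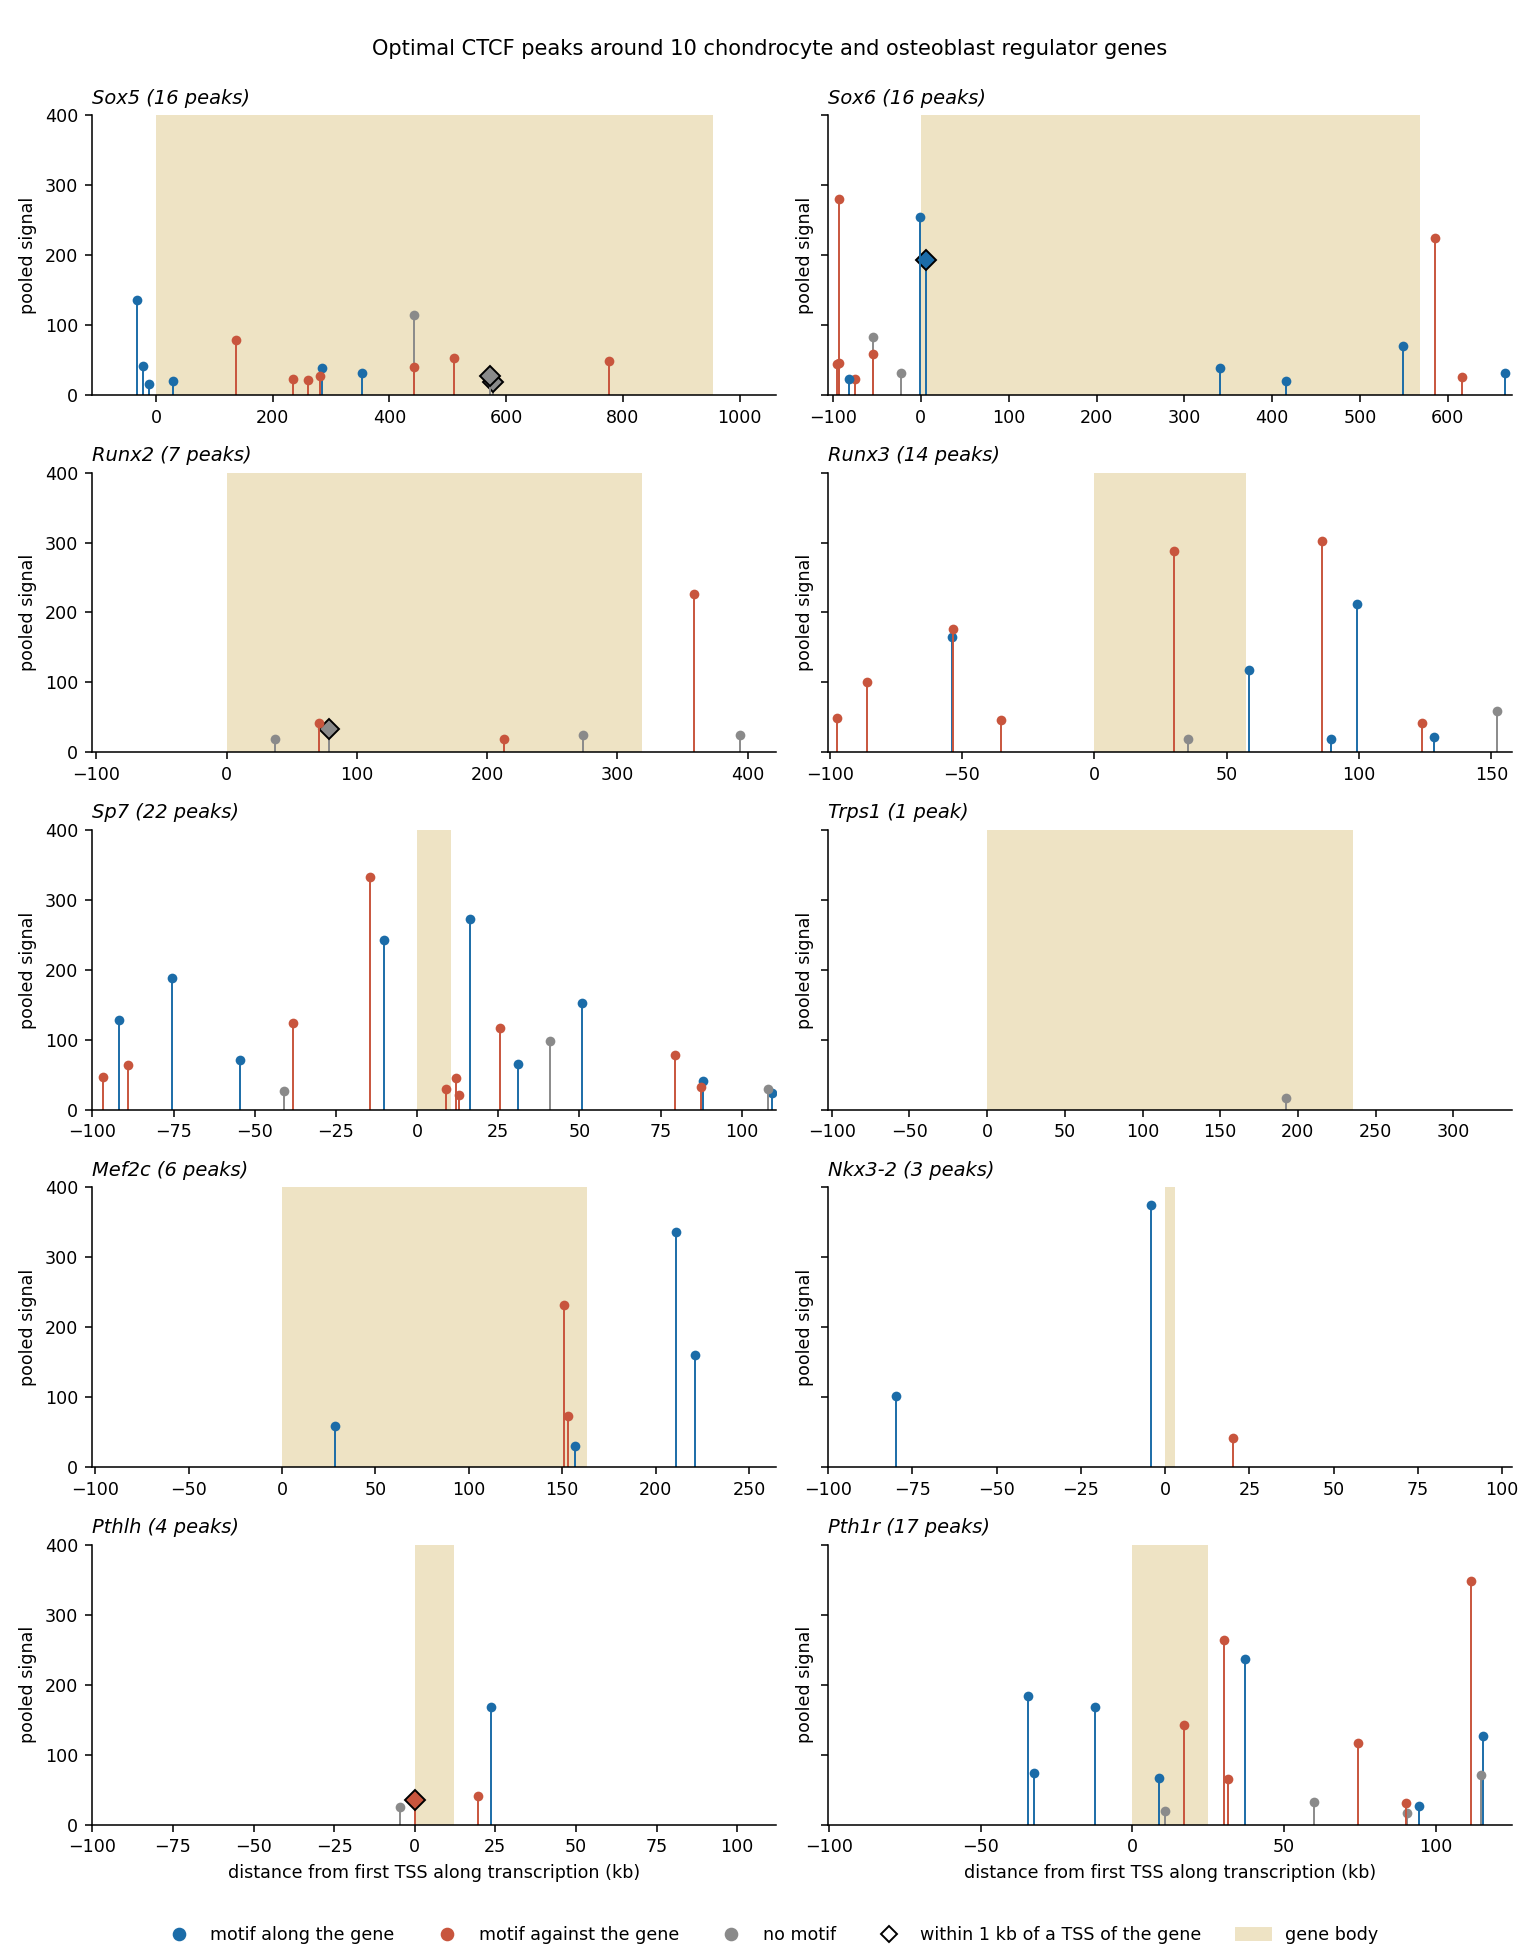
Each panel shows 1 gene, with distance from the first annotated start site along the direction of transcription in kb on the x axis and pooled signal on the y axis. Each stem is 1 optimal peak, coloured by the direction of its motif, diamonds mark peaks within 1 kb of a start site of the gene, and shading is the gene body. Strong peaks stand mostly beside the shading, as at Nkx3-2, Runx2 and Pthlh, and Trps1 has a single low peak.

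CTCF was found near a transcription start site (TSS) of 4 of the 10 genes, Sox5, Sox6, Runx2 and Pthlh, with 5 peaks in all. The same rule, a summit within 1 kb of any annotated TSS, was met by 33.4% of protein-coding genes, so 4 of 10 (40.0%, exact 95% interval 12.2 to 73.8) is near the background. Only 1 of the 5 promoter peaks, that of Sox6, lay above the median signal of all optimal peaks, and none was in the strongest decile. Signal and motif were not counted over the promoter peaks of all coding genes, so whether these 5 are unusual cannot be said. Counting the first TSS of each gene alone left Pthlh as the only gene of the 10 with a promoter peak, beside 26.1% of coding genes. Among the strongest 50% of the optimal peaks, Sox6 alone of the 10 had one, beside 17.2% of coding genes.

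The promoter peak sequences are given because 3 of the 5 held no CTCF motif. Lines with capitals show the motif, and the lines for chr6:144204137-144204165, chr6:144209696-144209736 and chr17:44736499-44736527 show the bases at the summit on the plus strand. The Sox6 line is chr7:116033078-116033137 on the minus strand, and the Pthlh line is chr6:147264133-147264162 on the plus strand.
Sox5, at the transcript Sox5-208: ggctggcagtgttgctgaggtttccccgt
Sox5, at the transcript Sox5-214: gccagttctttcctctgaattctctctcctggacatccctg
Sox6: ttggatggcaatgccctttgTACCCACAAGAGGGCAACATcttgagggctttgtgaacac
Runx2: ccccgcctaggacatcgccgcctgcgtcc
Pthlh: gcgagTCGCAAAGAGGTGGCGCCCGaggaa
The absence of a hit says only that no 20 bases with a centre within 50 bp of the summit reached the score. The Pthlh hit was a weak one, which passed the score that 5% of windows 1 kb away from peaks reached but not the score that 1% of them reached.

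Sox5 and Sox6 encode the paired SoxD factors that work beside Sox9 to switch on cartilage matrix genes, and both are very long genes. Sox5 (chr6:143828425-144781977, minus strand) is 953.6 kb long and held 13 of the 16 peaks of its window inside the gene. Sox6 (chr7:115470872-116038796, minus strand) is 567.9 kb long and held 4 of 16 inside, with 9 upstream and 3 downstream. Most Sox5 peaks were thus inside the gene and most Sox6 peaks outside it. The genes fill most of their windows, which are 1154 kb at Sox5 and 767.9 kb at Sox6. Per 100 kb, Sox5 had 1.36 peaks inside the gene and 1.39 over the window, so its peaks were not denser inside. Sox6 had 0.704 inside and 2.08 over the window. The equal totals hold for 100 kb on each side only: with 50 kb on each side the counts were 16 and 8, and with 250 kb 32 and 27.

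The Sox5 peaks were weak. Their pooled signals ran from 15.5 to 135.5 with a median of 35.3, 3 of 16 lay above the median of all optimal peaks, and none was in the strongest decile. The strongest, 33066 bp upstream of the first TSS, had a signal of 72.2 in replicate 1 and 61.5 in replicate 2 (mean 66.8 ± 7.57, SD, n = 2). The next, in an intron, had a pooled signal of 114.4 with 60.4 and 57.4 in the replicates, and carried no motif within reach of its summit. The third, at 77.8 pooled with 44.1 in replicate 1 and 35.2 in replicate 2, also lay in an intron.

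Sox5 has a group of start sites deep inside the locus, and both of its promoter peaks sat there, 572261 and 577826 bp downstream of the first TSS. One lay 148 bp from the start of the coding transcript Sox5-214, at 27.2 pooled, 11.2 in replicate 1 and 16.8 in replicate 2. The other lay in an exon 94 bp from the start of the noncoding transcript Sox5-208, at 18.2 pooled, 8.24 in replicate 1 and 11.98 in replicate 2. Both were lower in replicate 1, and the second was not among the strongest 49970 peaks of both replicates. Just upstream of the gene the nearest peak, 12612 bp from the first TSS, was the lowest of the 106 at 15.5 pooled, with 6.57 and 12.2 in the replicates. Past the gene end the nearest peak was 209715 bp away, with 19.7 pooled, 7.45 in replicate 1 and 12.5 in replicate 2.

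Sox6 had strong peaks at both ends. The peak 1605 bp upstream of the first TSS, which is also within 1 kb of a TSS of the neighbour 1110004F10Rik, had a pooled signal of 254.7 with 130.3 in replicate 1 and 123.7 in replicate 2 (mean 127.0 ± 4.66, SD, n = 2). The promoter peak, in an intron 486 bp from the start of the retained-intron transcript Sox6-209, had a pooled signal of 193.3 with 99.1 and 94.1 in the replicates. Past the gene end, 17376 bp away, a peak of 224.7 had 124.0 in replicate 1 and 103.8 in replicate 2. The motif before the gene and the motif past it pointed towards each other, and between the intronic promoter peak and the next intronic peak lay 334.8 kb without an optimal peak. The strongest peak of the window, 279.6 pooled with 135.7 and 145.1, lay 93479 bp upstream inside the neighbouring gene Plekha7.

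Nkx3-2 encodes a homeobox repressor, also called Bapx1, that keeps chondrocytes immature and lowers Runx2. The gene (chr5:41761483-41764501, minus strand) is 3.02 kb long and had 3 peaks in its window and none inside it. The peak 4083 bp upstream of its TSS was the strongest of the 106, with 202.0 in replicate 1 and 173.8 in replicate 2 (mean 187.9 ± 19.98, SD, n = 2). On the other side the nearest peak, 17044 bp past the gene end, had a pooled signal of 41.0 with 21.4 and 18.1 in the replicates. Both motifs pointed towards the gene, but both were weak hits that failed the stricter score. The third peak, 79895 bp upstream at a TSS of Bod1l, had a pooled signal of 102.4 with 44.0 in replicate 1 and 56.4 in replicate 2.

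Runx2, the factor without which osteoblasts do not form, and Runx3, which acts with it in chondrocyte enlargement, differed in density and signal. Runx2 (chr17:44495987-44814797, minus strand) is 318.8 kb long and had 7 peaks, 1.35 per 100 kb. Runx3 (chr4:135120652-135177990, plus strand) is 57.3 kb long and had 14 peaks, 5.44 per 100 kb. Of the Runx2 peaks 1 of 7 was above the overall median, against 8 of 14 for Runx3.

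At Runx2 the one strong peak lay 40123 bp past the gene end, with 125.1 in replicate 1 and 103.0 in replicate 2 (mean 114.0 ± 15.6, SD, n = 2). The 5 peaks inside the gene had pooled signals from 18.6 to 41.6, and 2 of these 5 were among the strongest of both replicates. The promoter peak was 135 bp from the start of the coding transcript Runx2-203, in an exon and 78284 bp downstream of the first TSS. It had 33.2 pooled, 17.6 in replicate 1 and 14.4 in replicate 2, and lay in sequence of 70.6% GC, without a motif and also at a TSS of the antisense gene Runx2os1. Upstream of Runx2 no optimal peak was found until 147621 bp from the gene, where the pooled signal was 23.2 with 13.0 and 9.16 in the replicates.

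At Runx3 no peak met the promoter rule, but a strong intronic peak lay 1864 bp from the start of the internal coding transcript Runx3-202. It had a pooled signal of 288.5, with 152.6 in replicate 1 and 137.3 in replicate 2 (mean 144.9 ± 10.8, SD, n = 2), and was the only one of the 34 peaks inside the 10 genes in the strongest decile. The strongest peak of the window, 28535 bp past the gene end, had 163.6 and 135.3 in the replicates. Past that, 41831 bp from the gene end in Clic4, a peak of 212.5 pooled had 103.1 and 108.0. The nearest peaks outside the gene had motifs that pointed away from it. They were 46.3 pooled at 35364 bp upstream (16.1 and 26.9) and 117.6 pooled at 1146 bp downstream (55.3 and 61.4).

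Sp7 encodes Osterix, the zinc finger factor that acts after Runx2 in osteoblasts. It had the most peaks of the 10 genes in this window, 22, and a density of 10.4 per 100 kb, above that of 98.0% of coding genes. With 50 kb on each side it had 12, fewer than the 16 of Sox5. The gene (chr15:102356606-102367182, minus strand) is 10.6 kb long and shares its window with 10 other coding genes, among them Sp1, Rarg and Aaas, and 11 of the 22 peaks lay within 1 kb of a TSS of another gene. The peaks 14569 bp and 10197 bp upstream had pooled signals of 332.2 and 242.1. The first had 180.3 in replicate 1 and 156.3 in replicate 2 (mean 168.3 ± 17.0, SD, n = 2), and the second had 120.3 and 121.4. Downstream, 5788 bp past the gene end at the start of Aaas, a peak of 272.7 had 141.3 and 130.0 in the replicates. The nearest downstream peak, 1343 bp from the end, was lower, at 45.5 pooled with 26.5 and 21.4, and its motif faced that of the nearest upstream peak. The 1 peak inside Sp7, in an exon 8218 bp from the nearest TSS of the gene, had a pooled signal of 29.9 with 14.2 and 14.3.

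Mef2c, whose product drives chondrocyte enlargement and vessel entry into bone, had 6 peaks, all with a motif and all found in both replicates. The gene (chr13:83504034-83667080, plus strand) is 163.0 kb long, has no other coding gene in its window, and carries its strong peaks at the 3′ side. The peak 48094 bp past the gene end had 178.3 in replicate 1 and 157.2 in replicate 2 (mean 167.7 ± 14.9, SD, n = 2). The intronic peak 12007 bp before the gene end had a pooled signal of 231.2, with 121.6 and 111.6. A further one 58099 bp past the end had 160.4 pooled, with 86.1 and 77.5. On the 5′ side the nearest optimal peak was 428358 bp away and low, at 16.5 pooled with 6.73 in replicate 1 and 9.98 in replicate 2.

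Trps1, an atypical GATA factor named for a human syndrome of the hair, face and finger bones, had 1 peak in a window of 435.7 kb. It lay in an intron 129390 bp from the nearest TSS of the gene, with a pooled signal of 16.5, 6.23 in replicate 1 and 11.5 in replicate 2 (mean 8.86 ± 3.71, SD, n = 2). It was not among the strongest 49970 peaks of both replicates, and neither the conservative list nor the strongest 49970 peaks of replicate 1 held a peak in the Trps1 window. The gene is chr15:50654752-50890463 on the minus strand. Its nearest outside peaks were 135451 bp upstream (18.2 pooled, 11.3 and 6.27 in the replicates) and 393055 bp downstream (203.8 pooled, 97.3 and 107.1). From one of these to the other the distance was 764.2 kb.

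Pthlh and Pth1r, the ligand and the receptor, differed in the number of peaks. Pthlh (chr6:147252101-147264183, minus strand, 12.1 kb) had 4 peaks and no other coding gene in its window, and Pth1r (chr9:110722085-110747145, minus strand, 25.1 kb) had 17 peaks and 9 other coding genes. The Pthlh promoter peak lay in the first exon, 10 bp from the start of Pthlh-201 and 26 bp from that of Pthlh-202, and was the nearest to a TSS of the 5. Its pooled signal was 35.4, with 14.2 in replicate 1 and 20.4 in replicate 2 (mean 17.3 ± 4.42, SD, n = 2). The strongest Pthlh peak, 11694 bp past the gene end, had 95.3 and 74.5 in the replicates. The nearest peaks outside were 40.2 pooled at 7650 bp past the end (18.95 and 20.01) and 25.5 pooled at 4453 bp upstream (16.8 and 5.87), and the latter was among the strongest of replicate 1 only.

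Pth1r had no peak within 1 kb of a TSS, and the nearest to any of its TSSs was 4477 bp away in an intron, at 66.0 pooled with 34.1 and 29.6. The nearest peaks on the 2 sides of the gene were both strong. The upstream one, 12328 bp from the first TSS in Myl3, had 168.1 pooled with 87.9 and 80.1. The downstream one, 5170 bp past the gene end, had 263.6 pooled with 130.4 in replicate 1 and 135.1 in replicate 2 (mean 132.8 ± 3.34, SD, n = 2). Their motifs pointed towards each other across the gene. The strongest peak of the window lay 86653 bp past the gene end at a TSS of Nbeal2, with 178.0 and 167.6 in the replicates, and 6 of the 17 Pth1r peaks were within 1 kb of a TSS of another gene.

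The 6 genes without a promoter peak were looked up in the full pooled list of 300000 peaks, which is longer than the optimal list of 49970. The strongest full-list peak within 1 kb of a TSS had a signal of 17.2 at Runx3, 8.76 at Mef2c, 8.12 at Trps1, 7.58 at Sp7, 6.88 at Nkx3-2 and 5.398 at Pth1r. Their ranks in that list ran from 55646 at Runx3 to 268000 at Pth1r. The strongest 49970 peaks of replicate 1 included a peak within 1 kb of a Runx3 TSS, which made the count 5 of 10 genes in that list, beside 34.31% of coding genes. Whether it is the same site as the full-list entry at Runx3 was not checked. All 6 full-list signals lay above the lowest signal in the optimal list, 5.144, so signal alone does not set these entries apart. None of the entries is in the optimal list, so they were not counted as called sites.

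Taken over the 10 genes together, peaks inside the genes had a lower median signal than those around them. This was not compared gene by gene, and the Runx3 intronic peak of 288.5 lay inside. At 9 of the 10 genes, all but Nkx3-2, at least 1 summit lay inside the gene, beside 48.8% of all coding genes and 85.0% of the coding genes of at least 50 kb. The 34 peaks inside had a median pooled signal of 34.3, and the 72 outside a median of 70.7. Sox5 held 13 of the 34, and without it the medians were 35.4 and 71.0. Over all optimal peaks the median was 52.7 inside any coding gene and 66.2 outside all of them. That split is not the same, because peaks outside these genes can lie inside other coding genes, such as Plekha7, Nbeal2 and Clic4. Of the peaks inside, 9 of 34 lay above the overall median and 22 of 34 were found in both replicates, against 42 of 72 and 62 of 72 outside. No test was made of this difference, since peaks of 1 gene share their surroundings. The genes also weigh unequally on the 2 sides, with 13 peaks inside at Sox5 and 1 at Sp7.

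**Figure D2:**
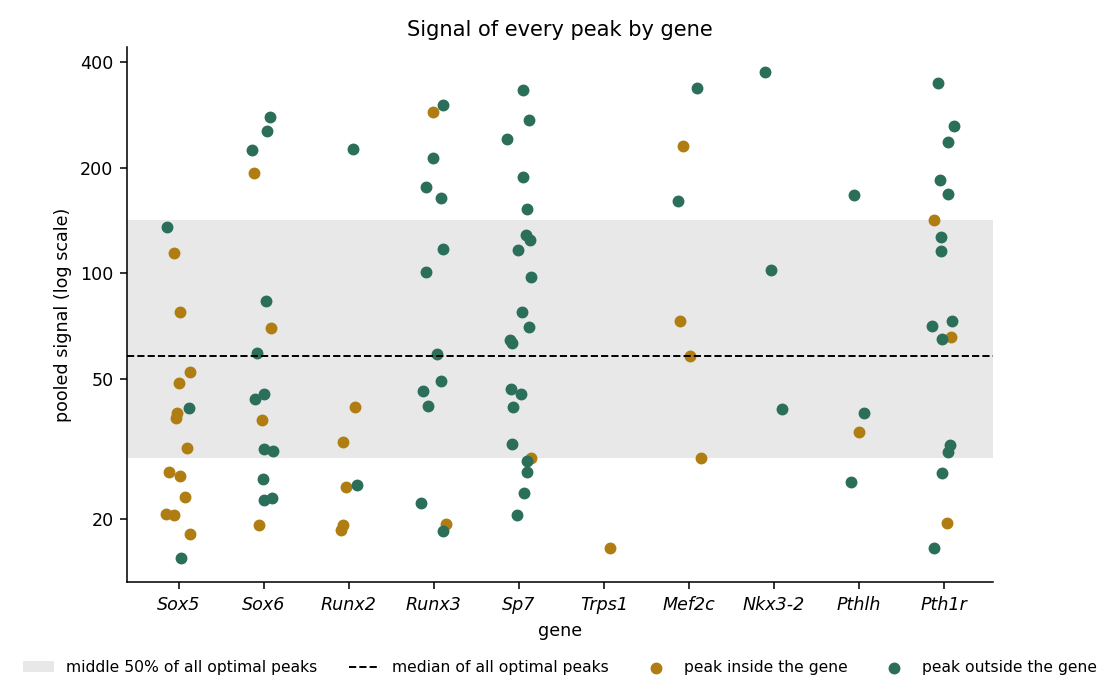
Pooled signal on a log axis is shown for every peak of each gene, coloured by position inside or outside the gene, with small sideways shifts so that points can be told apart. The grey band is the middle 50% of all optimal peaks and the dashed line their median of 58.4. Most Sox5 and Runx2 points lie below the line, and most Pth1r and Sp7 points above it.

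Density of peaks ran from 0.229 per 100 kb at Trps1 to 10.4 at Sp7. The median gene of the 10 had 10.5 peaks in its window, beside 8 over coding genes, but 1.77 per 100 kb beside 3.22. The 10 genes were longer, with a median of 110.2 kb beside 17.4 kb, and a longer gene has a longer window. Sp7, Pth1r and Runx3, with 10.4, 7.55 and 5.44 peaks per 100 kb, lay above the median density of coding genes. Sox6 (2.08), Pthlh (1.89), Mef2c (1.65), Nkx3-2 (1.48), Sox5 (1.39), Runx2 (1.35) and Trps1 (0.229) lay below it. Trps1 was above 10.01% of coding genes and Sp7 above 98.0%.

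**Figure D3:**
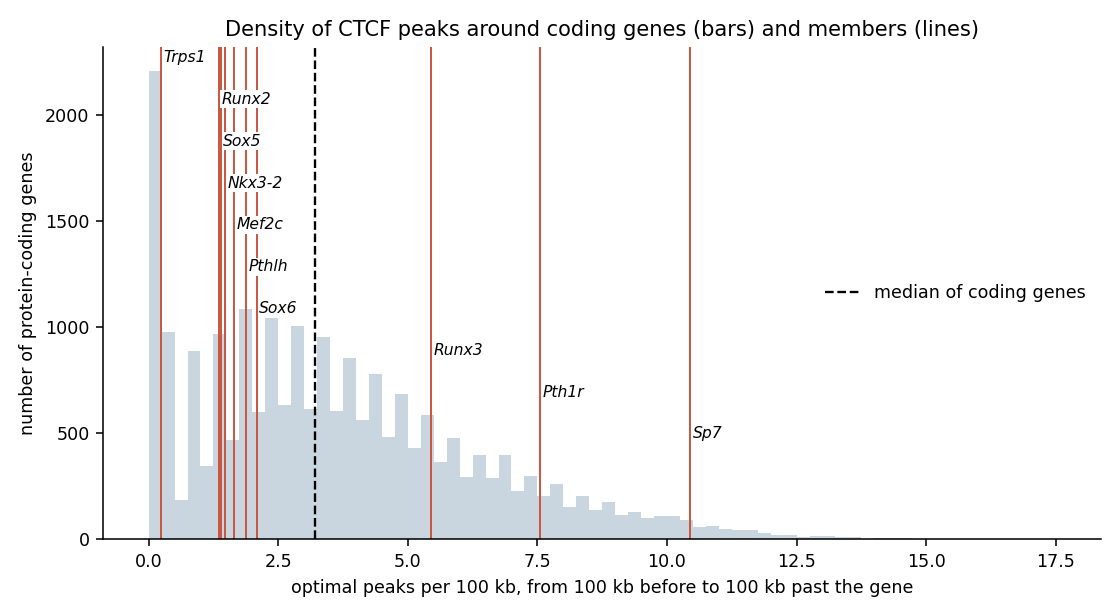
Bars show how many protein-coding genes have each density of optimal peaks, in peaks per 100 kb over the gene and 100 kb on each side. Red lines mark the 10 genes and the dashed line the median of coding genes, 3.22. Sp7, Pth1r and Runx3 stand to the right of it and the other 7 to the left.

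Long stretches without a peak touched 5 of the 10 genes, beside 21.1% of coding genes. The median distance between neighbouring optimal peaks was 18.1 kb over the genome, and 95% of the distances were below 183.5 kb. The longest stretch without a peak that reached into or over the gene was 456.5 kb at Mef2c, 436.4 kb at Trps1, 386.6 kb at Sox5, 334.8 kb at Sox6 and 184.7 kb at Runx2, all above that value. It was 65.3 kb at Runx3 and between 19.1 and 24.1 kb at Sp7, Pthlh, Pth1r and Nkx3-2. At Mef2c the stretch ended in the first part of the gene, 28157 bp past the first TSS, at a peak of 58.2 pooled with 35.5 in replicate 1 and 24.1 in replicate 2. All 5 are among the 6 of these genes that are at least 50 kb long, and of all coding genes of that length 24.8% were touched by such a stretch. No finer adjustment was made for length.

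The nearest motif-bearing peaks on the 2 sides of a gene faced each other at 5 of the 10 genes, Sox5, Sox6, Nkx3-2, Sp7 and Pth1r. This arrangement held for 27.9% of coding genes, and the exact 95% interval of 5 of 10 ran from 18.7 to 81.3%, so the background lay inside it. Part of this arrangement rests on hits that failed the stricter score, which 1% of windows 1 kb away from peaks reached: both at Nkx3-2, the upstream one at Sox5 and the downstream one at Sp7. With hits at the stricter score alone, 4 of the 10 genes had facing motifs, Sox5, Sox6, Sp7 and Pth1r, beside 27.8% of coding genes, and Runx3, Mef2c and Pthlh changed class too. At the main score, both motifs of Runx2, Mef2c and Pthlh pointed the same way, and at Runx3 and Trps1 they pointed apart. The distances differed widely. At Nkx3-2 the facing motifs were at peaks 24.1 kb apart, and at Sox5 one of them was 219144 bp past the gene end. Over the 77 pairs of neighbouring motif-bearing peaks within the windows, 17 were convergent, 19 divergent and 41 tandem, and 52.5% of such pairs over all optimal peaks were tandem. Direction of motifs is a property of the sequence, and no contact between sites was measured.

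The motif share was near that of all peaks. Of the 106 peaks, 86 (81.1%, exact 95% interval 72.4 to 88.1) had the motif within 50 bp of the summit, beside 80.7% of all optimal peaks. At the stricter score, 56 of 106 (52.8%) passed, beside 57.1%. Peaks with the motif had a median pooled signal of 65.0 and those without 27.2, beside 72.5 and 30.5 over all optimal peaks. Of the 20 peaks without it, 10 were found in both replicates, against 74 of the 86 with it. Over all optimal peaks 81.2% were found in both, but this was not counted by motif. Whether the contrast is particular to these genes therefore cannot be said. Runx2 stood lowest among the genes with more than 1 peak, with a motif at 3 of 7 peaks, and Mef2c and Nkx3-2 had one at all of theirs, 6 of 6 and 3 of 3. Over the 86 peaks, motif score and pooled signal had a Spearman correlation of 0.293, a description across sites that share libraries and base composition, beside 0.364 over all optimal peaks with the motif.

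Of the 106 summits, 21 (19.8%) lay in repeat-masked sequence, beside 17.4% of all optimal peaks. All 21 had the motif, near the 90.5% of all optimal peaks in repeats, and at 15 of them all 20 motif bases were themselves masked. Sox5 held 8, Sox6 5, Pth1r 3, Runx3 and Sp7 2 each and Runx2 1. Short interspersed repeats of rodents are known to carry CTCF motifs to many places in the genome, but the masking does not name a repeat family. The lines below show why these sites were looked at as a set: genes on different chromosomes carried motifs with the same letters in the middle. Capitals mark the motif, and each name is followed by the summit position. The windows are chr6:144429457-144429516 and chr6:144752328-144752387 (both minus) for Sox5, chr15:102336070-102336129 (minus) for Sp7, chr9:110715593-110715652 (plus) and chr9:110738213-110738272 (minus) for Pth1r, and chr4:135210001-135210060 (plus) for Runx3.
Sox5 144429480: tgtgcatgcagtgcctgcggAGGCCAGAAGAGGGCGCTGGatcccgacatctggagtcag
Sox5 144752355: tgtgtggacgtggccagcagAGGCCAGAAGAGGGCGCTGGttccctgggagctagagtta
Sp7 102336100: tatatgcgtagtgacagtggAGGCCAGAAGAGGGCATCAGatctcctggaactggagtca
Pth1r 110715614: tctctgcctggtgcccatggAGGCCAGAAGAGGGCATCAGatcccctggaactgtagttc
Pth1r 110738242: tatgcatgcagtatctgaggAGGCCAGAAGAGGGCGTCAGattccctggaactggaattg
Runx3 135210026: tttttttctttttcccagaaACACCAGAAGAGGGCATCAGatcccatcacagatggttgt
The motif of the Sp7 site and that of the first Pth1r site were identical over all 20 bases, and 49 of 60 bases matched with the flanks. The pair of Sox5 sites also had identical motifs, with 35 of 60 bases the same in all. Other pairs were less alike, down to 14 of 20 motif bases and 27 of 60 in all for the second Sox5 site and the Runx3 site. These 6 examples were chosen after their sequences were seen.

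The letters CCAGAAGAGGG, bases 4 to 14 of the motif as read along its own strand, were shared by all 6. They were the most frequent letters at those bases among the motifs of the 10 genes that were wholly masked, and were then counted on either strand at the best hit of every peak. They stood at 11 of the 21 peaks of the 10 genes with the summit in a repeat (52.4%). Of the 65 other peaks with a motif, 2 had them (3.08%). At those 2, of Sox6 and Runx3, all 20 motif bases were masked although the summit base was not. Over all optimal peaks with a motif the shares were 53.3% with the summit in a repeat and 1.60% with it outside. Sox5 alone had 6 of these 13 sites. Their pooled signals ran from 18.5 to 66.0 with a median of 41.4, so they were low to middling, beside a median of 35.8 over all 4698 optimal peaks with those letters. The Sp7 and Pth1r sites were the highest of the lines shown, and the second Pth1r site is the one nearest to a TSS of that gene. Sp7 had 64.8 pooled with 35.1 in replicate 1 and 29.6 in replicate 2, and the first Pth1r site 65.2 with 26.1 and 37.4. The Sox5 sites had 31.8 with 14.9 and 16.6, and 20.5 with 15.2 in replicate 1 and no summit within 100 bp in replicate 2. The strongest repeat peak of the 10 genes, the 279.6 site upstream of Sox6, carried other letters, as its line among the strongest peaks shows.

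The replicates ranked the 106 peaks alike at the top and less so at the bottom. Of the 106, 104 had a summit within 100 bp in both full replicate lists, and over these the Spearman correlation of the replicate signals was 0.93, a description across sites. Found in both replicates, that is among the strongest 49970 peaks of each, were 84 of 106 (79.2%), beside 81.2% of all optimal peaks. Of the others, 9 were in replicate 1 only, 9 in replicate 2 only and 4 in neither, and all 22 lay under the median signal of optimal peaks. This last result is largely built in, because the pooled signal comes from the same 2 libraries. The conservative list had a summit at exactly the same base for 89 of the 106 (84.0%), beside 87.6% of the optimal peaks. It held 102 peaks in the same windows, so 89 is not the number of sites in that list.

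After each replicate was scaled by its median over the optimal peaks, the SD of the log2 ratio of replicate 1 to replicate 2 was 0.28 for the 51 peaks above the overall median and 0.70 for the 53 below it that had both values. The same SDs over all optimal peaks were 0.27 and 0.66. In the strongest decile, 11 peaks of Sox6, Runx3, Sp7, Mef2c, Nkx3-2 and Pth1r, the ratio ran from -0.17 to 0.20. The largest ratio was 2.08, at the Sox6 intronic peak of 19.2 pooled with 14.1 in replicate 1 and 3.16 in replicate 2.

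**Figure D4:**
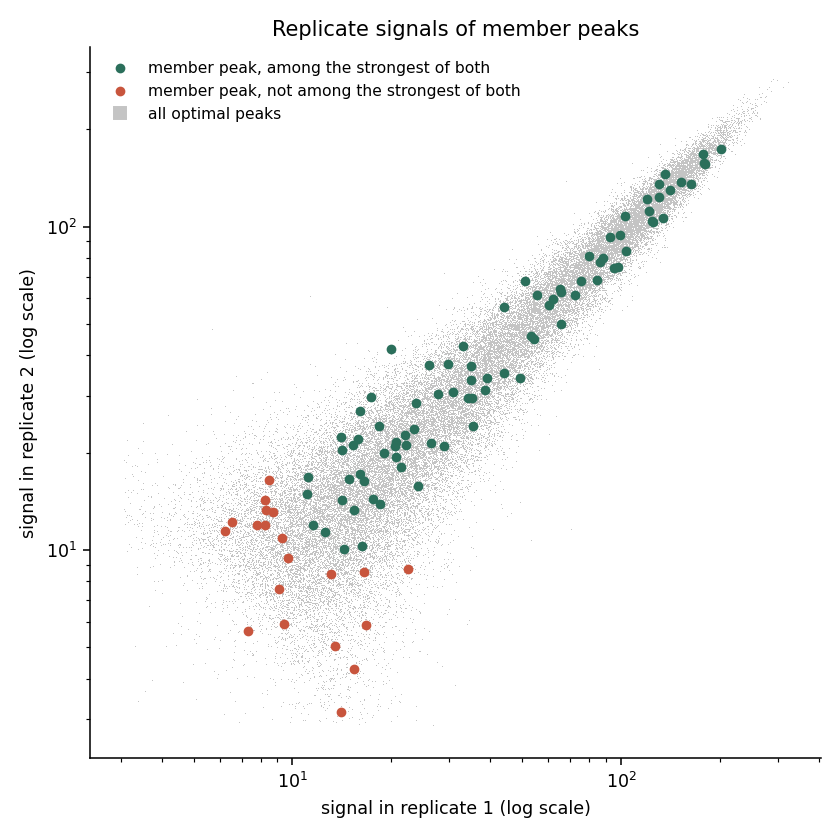
Signal in replicate 1 (x axis) and replicate 2 (y axis), both on log scales, is shown for the 104 peaks of the 10 genes with both values and, in grey, for all optimal peaks with both. Green points are among the strongest 49970 peaks of both replicates and red points are not. The points narrow towards the top right, and all red points lie in the lower left.

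Genes that work with these 10 were taken from 4 lists. Among 22 genes, nearly all relatives in the same gene families, 7 had a promoter peak. The Sp1 promoter peak, at 124.2 pooled, is also a peak of the Sp7 window. Sox13, the third SoxD gene, had 255.4 pooled with 121.7 in replicate 1 and 132.0 in replicate 2. Pth2r, a second receptor of the family, had 131.3 with 65.0 and 68.3, and Cbfb, the partner subunit of the Runx factors, had none. The promoter signal of Sox13, named as the strongest of its list, was above those of Sox5 and Sox6 in both replicates. This depends on the 1 kb rule: the Sox6 peak 1605 bp upstream of the first TSS had 254.7 pooled, with 130.3 in replicate 1 and 123.7 in replicate 2.

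Of 30 partners and inhibitors, 15 had a promoter peak. Snai2, a repressor in mesenchyme, had 228.9 pooled with 125.6 and 103.6, and Osr1, a zinc finger factor of limb connective tissue, had 164.5 with 76.0 and 91.2. Ctnnb1, which encodes β-catenin, had none. Of 28 genes of Indian hedgehog and PTHrP signalling, 17 had one. Gli1, a readout of hedgehog signalling, had 287.1 with 144.6 and 141.6, and Gli2, a main activator of the pathway, had 252.7 with 127.8 and 125.1, while Bmp2, a growth factor, had none. Of 28 cartilage and bone targets, 11 had one. Vegfa, which draws vessels into cartilage, had 361.4 with 191.3 and 174.2, and the protease gene Mmp9 had 257.3 with 127.9 and 131.5, while Acan, the aggrecan gene, had none. The promoter background of 33.4% applies to all 4 lists, whose shares were 31.8, 50, 60.7 and 39.3% in the order given. These lists were drawn up with results of the series known and received no test.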

How the data were processed

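CTCF ChIP-seq of embryonic limb was deposited as 5 peak lists on mm10, per the labels: 1 per library, 1 pooled, and a conservative and an optimal list that call themselves IDR thresholded (irreproducible discovery rate). The signal per peak is the authors' deposited value. What aligner, peak caller, control, IDR threshold and normalization were used was not given in the sources used here, so read depth is unknown and the number of libraries (2) limits precision. The main set was the optimal list of 49970 peaks, of which 49959 lie on the main chromosomes. Genes and TSSs came from GENCODE M21 and sequence from GRCm38.p6. The 10 genes, lists and rules were chosen with earlier results of these data known. Named were all 10 genes with their promoter peaks, strongest peaks and nearest outside peaks, and for each list the 2 strongest promoters and the first gene without one. Replicate signals came from the nearest summit within 100 bp. The motif matrix was refined in 10 rounds on 1000 strong peaks of odd-numbered autosomes away from the genes. Hits were centred within 50 bp of the summit, at the score that 5% of windows 1 kb away reached. Scanning and matching were tested on simulated data. Binomial intervals are exact 95% intervals and cover counting error only. No test between groups was possible with 1 group. Alternatives were the other lists, promoter, window, matching and motif settings, and each replicate alone. Python 3.11.15, numpy 2.4.6, pandas 2.3.3 and scipy 1.17.1 were used.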

Additional observations from a re-analysis of the deposited data

How the results depend on the processing

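No paired analysis was possible because there is 1 group. Taking the strongest 49970 peaks of replicate 2 alone gave 4 genes with a promoter peak, beside 33.85% of coding genes. Those of replicate 1 alone gave 5, beside 34.31%. Each replicate alone gave 108 to 111 peaks in the windows, 33 to 35 inside the genes and a motif share of 77.5 to 77.8%. With the strongest 50% of optimal peaks, the counts were 1 gene with a promoter peak, beside 17.2% of coding genes, 51 peaks in the windows and 9 inside the genes. All 51 (100%) were then found in both replicates. That outcome was nearly fixed in advance, because the pooled signal comes from the same 2 libraries, and its share over all peaks of that strength was not counted. Of the 51, 90.2% had a motif, beside 91.6% of all peaks of that strength. Promoters of 5 kb gave 8 genes, beside 52.0% of coding genes, and the first TSS alone gave 1. Windows of 250 kb held 211 peaks. The motif share was 52.8% at the score that 1% of windows reach and 67.9% within 100 bp of the summit, for which a higher score is needed, beside 74.1% of all optimal peaks. The median pooled signal was 58.6 in the conservative list, beside 60.5 over that list. The count per gene stayed within 1.5 times for 9 of 10 genes in the conservative list, all but Trps1, which had 0 there and without replicate 2. It did so for 6 of 10 genes with 50 kb windows, 3 of 10 with the strongest 50% of peaks and 1 of 10 with 250 kb windows. Facing motifs at the stricter score, an alternative chosen after seeing the data, were found at 4 genes in place of 5.

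The read depth is unknown, so that weak sites such as those at Trps1 and inside Runx2 cannot be given a counting error. The spread of 2 libraries from 1 pool says nothing of embryos or litters. Whole limbs mix tissues, so binding in chondrocytes or osteoblasts was not measured apart.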
